A study of Mus musculus with 23 samples.

Results

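Carbonic anhydrases were examined in marrow-depleted bone from control and diabetic mice. The 9 genes were Car1, Car2, Car3, Car4, Car5b, Car9, Car12, Car13, and Car14, found by their symbols among the 17644 genes of the TPM table and matched to the count table by gene ID. The TPM table held 7 other Car genes, giving 16 in all. RNA-Seq had been performed on femur and tibia from 23 female C57BL6/N mice at 11 weeks of age, with 1 library per mouse. The marrow had been spun out of the bones before RNA was extracted, and the RNA was polyA selected.

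The wild-type mice were nondiabetic in 5 cases (WT Control) and had type 1 diabetes in 6 (WT T1D). Of the mice with the Sarm1-KO label, 6 were nondiabetic (KO Control) and 6 had type 1 diabetes (KO T1D). Diabetes came from streptozotocin, a toxin of insulin-producing β cells, which was injected at 100 mg/kg on consecutive days and again if glucose stayed low, and it had lasted 3 weeks. Control mice received saline. The KO was global, so every cell type lacked the gene by design, and no group separates bone cells from nerves. Per the study's methods, WT mice were either littermates of the KO mice or purchased, and the labels do not say which.

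Total counts per mouse ranged from 16938101 to 20135592. Sarm1 RNA did not separate the libraries labelled KO, with a mean of 0.799 ± 0.503 CPM (SD, n = 6) in KO Control against 1.17 ± 0.403 CPM (n = 5) in WT Control, and of 1.19 ± 0.259 CPM (n = 6) in KO T1D against 0.687 ± 0.293 CPM (n = 6) in WT T1D. Sarm1 had 5 to 32 counts per mouse, and gene-level counts do not show whether part of a transcript is missing. Genotype was therefore taken from the labels alone. Of 14364 tested genes, 4 were higher in all KO than in all WT mice in CPM, and 1 was lower. The paper reports a significantly lower Sarm1 level in KO than in WT bone by qPCR. A pair of WT T1D mice, A3905 and A3906, stood apart from the other mice. Changes in WT that rest on them are given with and without them. The IDs of 1 WT Control and 3 WT T1D mice began with A17, and all other IDs began with A36 to A39. Among the latter, KO IDs began with A36 except A3766, and WT IDs began with A39 except A3767. ID series thus nearly follows genotype there. No comparison could be made within the A17 mice, which included 1 Control.

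Carbonic anhydrases are zinc enzymes that interconvert carbon dioxide and water with bicarbonate and a proton. Red blood cells use them to carry carbon dioxide, and osteoclasts, the cells that resorb bone, use CAR2 to make the acid that dissolves mineral. Family members differ mainly in where they act, with some in the cytosol, some in mitochondria, and some anchored in the cell membrane with the active site outside.

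Of the 9 genes, 5 lie on chromosome 3 of GRCm38.p6, the build used for the counts. Car13 (chr3:14641727-14663002), Car1 (chr3:14766214-14808365), Car3 (chr3:14863538-14872381), and Car2 (chr3:14886269-14900770) form 1 cluster that spans 259043 bases, and Car14 (chr3:95897768-95905117) lies apart from it. The others are Car9 (chr4:43507026-43513729), Car12 (chr9:66712296-66766845), Car4 (chr11:84957754-84966054), and Car5b (chrX:163976822-164028010). Car4 is on the same chromosome as Sarm1, with 6459938 bases between them. All 9 are annotated as protein coding.

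The clustered genes are shown with Car4 and Car12, which carry the same site in membrane-anchored enzymes, to show how alike the family is where it binds zinc. Each line gives the 51 coding bases, 5′ to 3′, that match the carbonic anhydrase signature of PROSITE, and the capitals mark the codon of a histidine that holds the zinc.
Car13: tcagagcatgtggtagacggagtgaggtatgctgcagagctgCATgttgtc
Car1: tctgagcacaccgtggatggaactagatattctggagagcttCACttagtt
Car3: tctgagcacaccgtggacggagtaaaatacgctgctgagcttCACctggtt
Car2: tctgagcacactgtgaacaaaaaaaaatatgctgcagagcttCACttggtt
Car12: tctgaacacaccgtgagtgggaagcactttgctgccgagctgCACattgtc
Car4: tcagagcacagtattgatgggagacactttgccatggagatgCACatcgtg

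These bases were read from the GENCODE annotation of GRCm38, and each stretch is split over 2 exons. They lie at chr3:14650739-14654895 for Car13, chr3:14770892-14776256 on the minus strand for Car1, chr3:14866883-14868360 for Car3, chr3:14895102-14895546 for Car2, chr9:66747683-66750941 for Car12, and chr11:84964200-84964359 for Car4, all on the plus strand except Car1. The signature matched in 8 of the 9 genes, with no match in Car14. Across the 36 pairs of genes, aligned coding bases were 59.9% to 71.2% identical, and the longest exact run shared by any pair of transcripts was 30 bases, in Car2 and Car13. How often single reads matched more than 1 of these genes was not tested.

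Levels were compared between genes in TPM, which corrects for transcript length. Car1, Car2, and Car3, all cytosolic enzymes, made up 98.8% to 99.6% of the summed TPM of the 16 Car genes in every mouse. In WT Control, Car3 was at 997 ± 268 TPM (SD, n = 5), Car2 at 814 ± 116 TPM, and Car1 at 285 ± 48.9 TPM. The ranges of Car3 and Car2 overlapped, and Car1 lay below both.

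The other 6 genes were below 6 TPM on average in WT Control. Car12 was at 5.71 ± 0.962 TPM and Car13 at 4.29 ± 1.16 TPM, with overlapping ranges. Car9 was at 2.03 ± 0.367 TPM, followed by Car14 at 1.15 ± 0.459 TPM, Car5b at 0.764 ± 0.197 TPM, and Car4 at 0.296 ± 0.145 TPM. The ranges of Car9 and Car14 overlapped, as did those of Car14 and Car5b, but the range of Car4 lay below that of Car5b. In KO Control the order was the same for the abundant genes, at 913 ± 316 TPM (n = 6) for Car3, 858 ± 137 TPM for Car2, and 321 ± 59.2 TPM for Car1.

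To ask how T1D altered the family in each genotype, counts were scaled to library sizes adjusted by TMM, a factor that allows for differences in RNA composition (CPM here), and tested with edgeR's quasi-likelihood test. Of the 9 genes, 8 had enough counts to be tested, and Car4 did not. In WT mice, Car1 and Car2 were higher with T1D at an adjusted p under 0.05, which is 2 of 8. Of all 14364 tested genes, 2.33% passed in either direction, with 1.5% higher and 0.828% lower. With Car12, 3 of 8 had an unadjusted edgeR p under 0.05, against 22.2% of all genes. In KO mice 0 of 8 passed, where 0.0% of all genes passed. There, 0 of 8 also had an unadjusted edgeR p under 0.05 (3.15% of all genes), and 0 of 8 passed with DESeq2 or with limma on TPM. For the interaction, the test of whether the change differed between genotypes, 0 of 8 passed, and 0.0% of all genes did. Car1, Car2, and Car12 had an unadjusted edgeR interaction p under 0.05 (10.2% of all genes), and 0 of 8 passed with DESeq2 or limma. The changes in WT were therefore not shown to differ from those in KO.

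**Figure D1:**
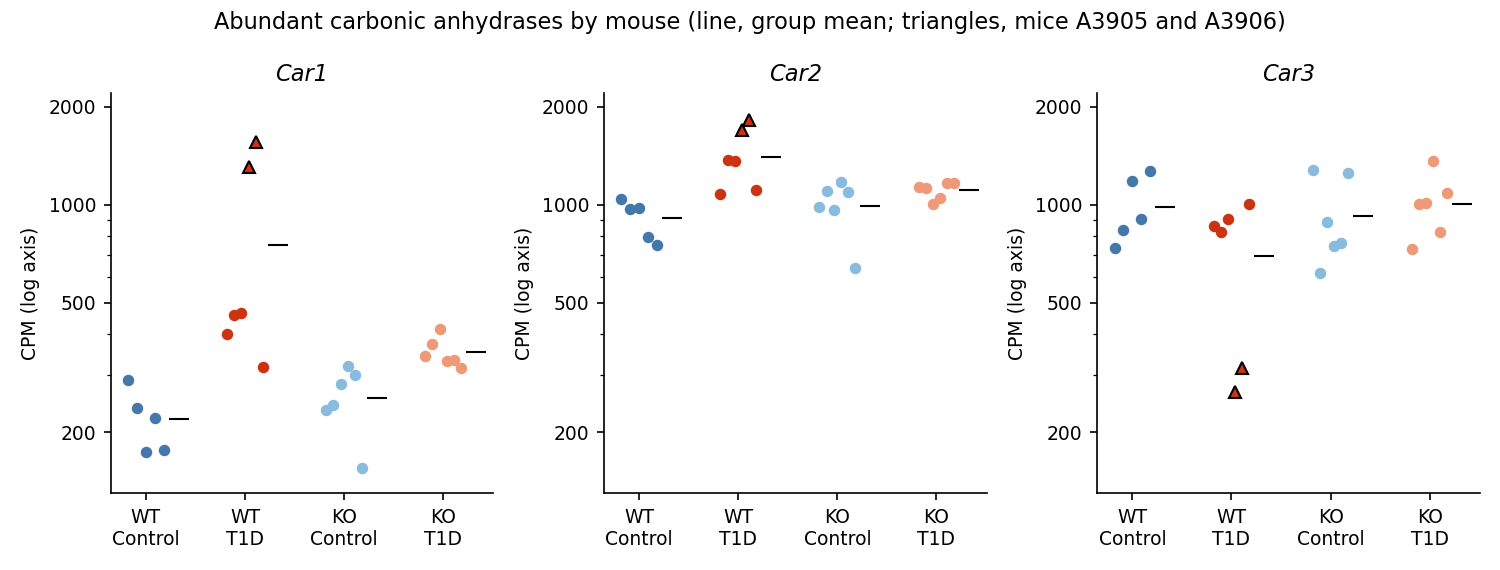
CPM of Car1, Car2, and Car3 in each mouse on a log axis, by group, with a line at each group mean. All 6 WT T1D mice lie above the 5 WT Control mice for Car1 and Car2, and A3905 and A3906 (triangles) are the highest for both and the lowest for Car3.

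Car1 encodes a cytosolic enzyme known for its abundance in red blood cells. In WT Control it was at 289, 237, 173, 221, and 176 CPM in the 5 mice. In WT T1D it ranged from 317 to 1561 CPM with a median of 461. All 6 diabetic mice were above all 5 controls, and A3905 (1309 CPM) and A3906 (1561 CPM) were far above the other 4, which reached 464 CPM. Groups did not overlap in this direction for 1.32% of all tested genes in CPM. The WT groups did not overlap in the other direction for 0.877% of genes in CPM and 6.98% in TPM, and 0 of the 9 carbonic anhydrases were among them.

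The fitted change of Car1 in WT was 1.77 ± 0.328 on the log2 scale (SE), or 3.42-fold (edgeR, adjusted p = 0.0209). Without A3905 and A3906 it was 0.90 ± 0.171 (edgeR, adjusted p = 0.1002), and 0 genes of any kind passed in WT. Among mice with A36 to A39 IDs, which keep that pair among 3 WT T1D mice, it was 2.41 ± 0.336 (edgeR, adjusted p = 0.00393). In that subset 2211 of 14278 genes passed in WT, against 334 of 14364 with all mice. On all mice DESeq2 gave a change of 1.78 ± 0.354 (DESeq2, adjusted p = 0.000367), where 1002 of 14364 genes passed. With only the WT groups in the fit, the change of Car1 was 1.78 ± 0.416 (edgeR, adjusted p = 0.171). The call was also lost when any 1 of A3767, A3903, A3904, A3907, or A3905 was left out (edgeR, adjusted p = 0.0591, 0.0553, 0.0611, 0.0803, and 0.0592).

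In KO Control, Car1 ranged from 155 to 319 CPM with a median of 262, and in KO T1D from 314 to 415 CPM with a median of 339. Of the 6 KO T1D mice, 5 were above all KO Control mice, and the lowest fell just under the highest control. This rests on the scaling. In counts scaled to library totals with no TMM factor, a scaling chosen after seeing the data, all 6 were above, at 317.3 to 418.2 against 160.0 to 316.6, where 0.0348% of tested genes did not overlap. In TPM, all 6 were above, at 386 to 523 TPM against 211 to 369 TPM. Groups did not overlap in this direction in TPM for 0.0348% of tested genes, and in CPM for 0.0905%. In the other direction 0.153% of genes did not overlap in TPM, and 0 of the 9 carbonic anhydrases were among them. The fitted change was 0.46 ± 0.300 (edgeR, adjusted p = 1.00). A two-sided exact permutation test of log2 (CPM + 0.5) in the KO mice gave p = 0.00433, unadjusted and one of 36 such tests over the 9 genes, where the smallest p possible is 0.00216. With only the KO groups in the fit, the change was 0.46 ± 0.139 (edgeR, unadjusted p = 0.00488, adjusted p = 0.988).

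Averaged over both genotypes, Car1 was higher with T1D by 1.12 ± 0.221 (edgeR, adjusted p = 0.0428) and was the 1 of 8 genes to pass, where 0.111% of all tested genes passed, with 0.0557% higher and 0.0557% lower. Without A3905 and A3906 the averaged change was 0.68 ± 0.113 and still passed (edgeR, adjusted p = 0.0236). Among mice with A36 to A39 IDs it was 1.43 ± 0.209 (edgeR, adjusted p = 0.0162), where 536 of 14278 genes passed. In TPM, all 12 diabetic mice were above all 11 control mice of either genotype, at 386 to 1478 TPM against 211 to 369 TPM. Of the 14364 tested genes, 1 was higher without overlap on this scale (0.00696%), and it was Car1. With counts scaled to library totals, all 12 were above too, and in CPM with the TMM factor 10 of 12 were. The averaged change no longer passed when any 1 mouse other than A1757, A1764, A1758, or A3909 was left out. The paper also names Car1 among the genes that were higher with T1D in both WT and KO mice. Its genes were selected by fold change in each genotype and by p values for diabetes and the interaction.

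Car2 encodes the fast cytosolic enzyme of red blood cells and osteoclasts, whose loss causes osteopetrosis. In WT Control it was at 1042, 973, 977, 799, and 753 CPM. In WT T1D it ranged from 1078 to 1821 CPM with a median of 1366, and all 6 diabetic mice were above all 5 controls. In TPM 5 of the 6 were above. The fitted change was 0.63 ± 0.144, or 1.55-fold (edgeR, adjusted p = 0.0411). Without A3905 and A3906 it was 0.44 ± 0.135 (edgeR, adjusted p = 0.289), among mice with A36 to A39 IDs 0.83 ± 0.178 (edgeR, adjusted p = 0.0112), and with only the WT groups 0.63 ± 0.154 (edgeR, adjusted p = 0.171). Among the A36 to A39 mice, 2211 of 14278 genes passed in WT. On all mice DESeq2 gave a change of 0.64 ± 0.142 (DESeq2, adjusted p = 0.00203), where 1002 of 14364 genes passed. The edgeR call was lost when any 1 of 12 of the 23 mice was left out, with the highest adjusted p without A3905 (edgeR, adjusted p = 0.115).

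In KO mice, Car2 ranged from 638 to 1174 CPM (median 1038) in Control and from 1004 to 1170 CPM (median 1133) in T1D. Every KO T1D mouse lay within the range of the KO Control mice. The fitted change was 0.16 ± 0.136 (edgeR, adjusted p = 1.00), and the interaction was -0.47 ± 0.198 (edgeR, adjusted p = 0.479), or -0.28 ± 0.178 (edgeR, adjusted p = 0.927) without A3905 and A3906. For Car1 the interaction was -1.31 ± 0.437 (edgeR, adjusted p = 0.479), or -0.44 ± 0.227 (edgeR, adjusted p = 0.927) without A3905 and A3906.

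**Figure D2:**
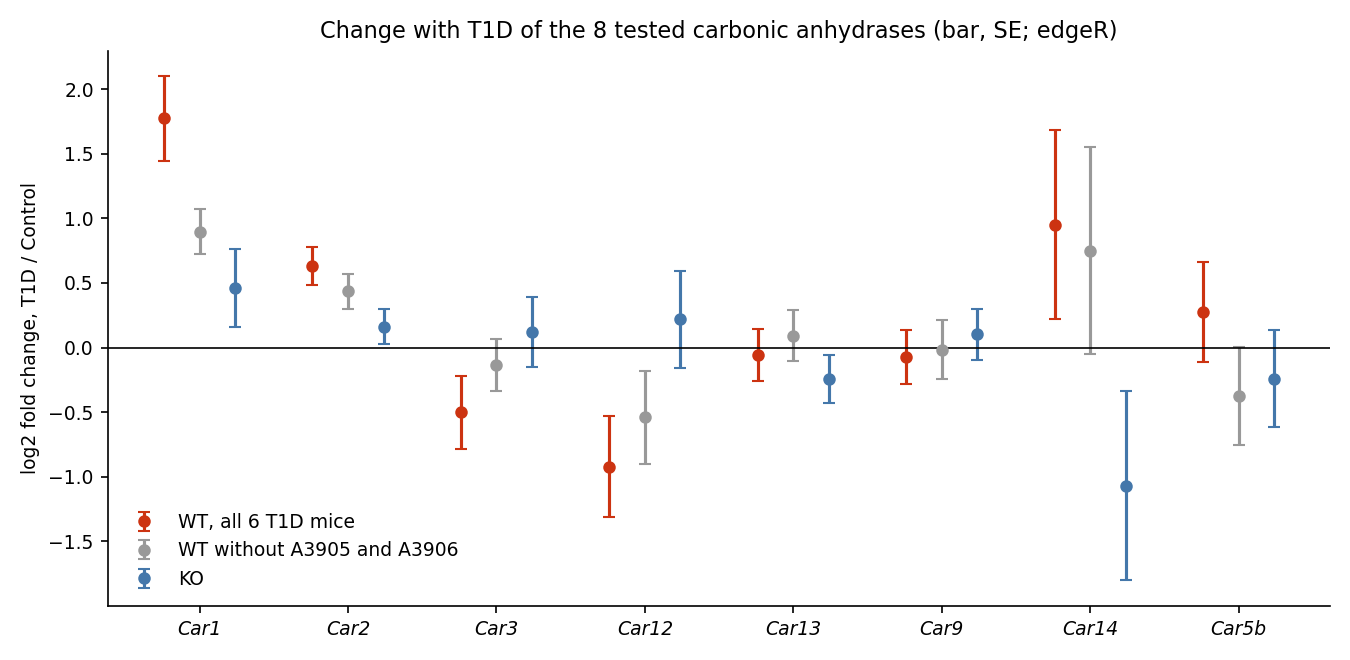
Log2 fold change with T1D of the 8 tested carbonic anhydrases (points, with SE as bars) in WT, in WT without A3905 and A3906, and in KO. Car1 is at 1.77, 0.90, and 0.46 in the 3 fits, and Car5b and Car13 change sign in WT when the pair is left out.

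Car3 encodes a cytosolic enzyme with low hydration activity that is known from skeletal muscle and fat. In WT Control it was at 735, 838, 1188, 904, and 1268 CPM. In WT T1D it ranged from 266 to 1008 CPM with a median of 842. A3905 (266 CPM) and A3906 (315 CPM) were below every control, whereas the other 4 diabetic mice, at 825 to 1008 CPM, lay within the control range. The change was -0.50 ± 0.283 (edgeR, adjusted p = 0.303), and -0.14 ± 0.203 (edgeR, adjusted p = 0.858) without that pair. On log2 (TPM + 1) it was -0.94 ± 0.346 (limma, adjusted p = 0.0403), and there the median over all genes was -0.24. In that fit 5154 of 14364 genes passed in WT.

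In KO mice, Car3 ranged from 619 to 1277 CPM (median 827) in Control and from 732 to 1368 CPM (median 1009) in T1D, with overlapping groups and a change of 0.12 ± 0.271 (edgeR, adjusted p = 1.00).

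The 3 abundant genes were also set against each other. In WT Control, Car1 made up 13.7% ± 3.56 (SD, n = 5) of the summed TPM of the family, Car2 38.6% ± 5.63, and Car3 46.6% ± 8.65. In WT T1D, Car1 made up 30.5% ± 15.1 (n = 6), Car2 42.6% ± 2.25, and Car3 26.2% ± 14.7. The share of Car1 was 48.7% in A3905 and 50.9% in A3906, against 16.9% to 22.4% in the other 4.

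In KO mice, Car1 made up 15.4% ± 3.55 (n = 6) in Control and 18.6% ± 2.43 (n = 6) in T1D. The ratio of Car1 to Car2 in TPM was 0.258 to 0.405 in WT Control and 0.416 to 1.25 in WT T1D, which did not overlap. It was 0.320 to 0.426 in KO Control and 0.392 to 0.602 in KO T1D, which did. These shares and ratios were not tested.

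**Figure D3:**
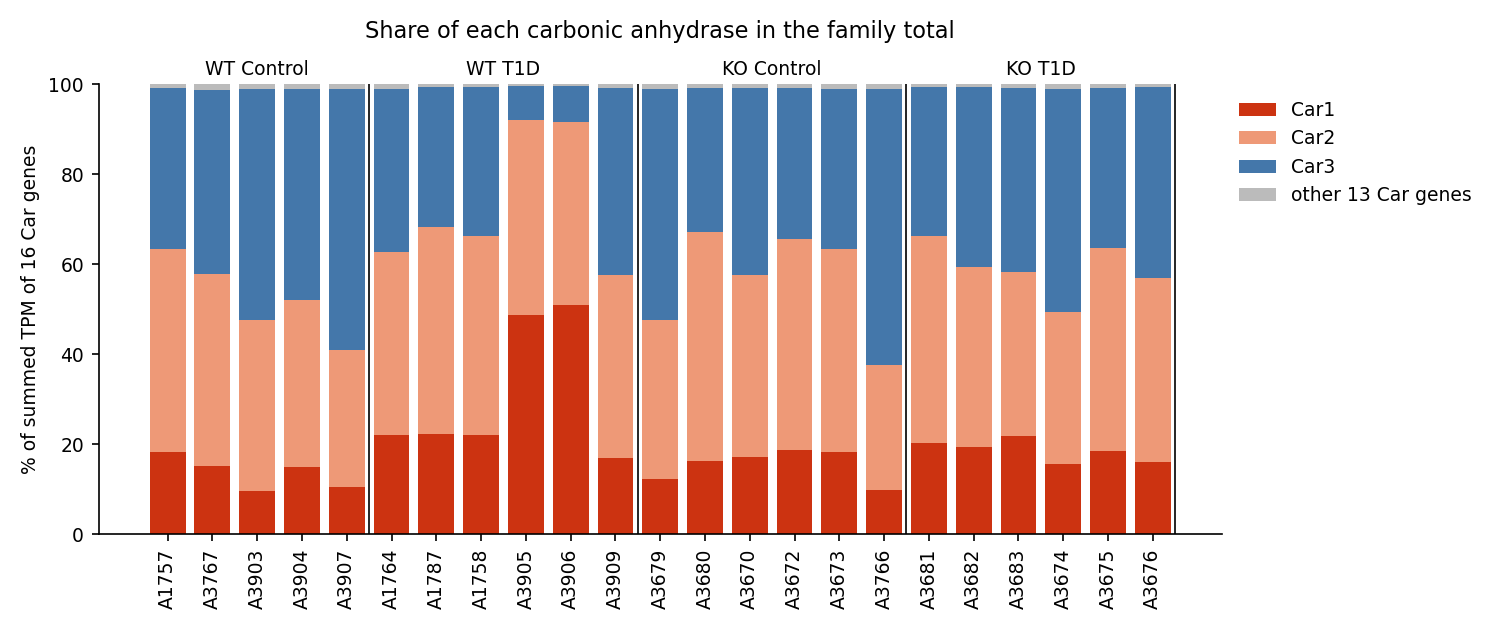
Percent of the summed TPM of 16 Car genes held by Car1, Car2, Car3, and the other 13 genes together, with 1 bar per mouse. Car3 falls to 7.59% and 7.90% in A3905 and A3906, where Car1 takes 48.7% and 50.9%.

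Among the low-expressed genes, Car12 encodes a membrane enzyme with its active site outside the cell. In WT Control it was at 11.7, 13.9, 15.8, 13.2, and 15.3 CPM. In WT T1D it ranged from 2.49 to 13.1 CPM with a median of 6.47. Of the 6 diabetic mice, 4 were below every control, and A3905 (2.49 CPM) and A3906 (3.18 CPM) were the lowest. The change was -0.92 ± 0.391 (edgeR, unadjusted p = 0.0269, adjusted p = 0.167), and -0.54 ± 0.360 (edgeR, adjusted p = 0.611) without that pair. On log2 (TPM + 1) it was -1.05 ± 0.312 (limma, adjusted p = 0.0180). In that fit 5154 of 14364 genes passed in WT, and the median over all genes was -0.24.

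In KO mice, Car12 ranged from 3.96 to 14.9 CPM (median 6.49) in Control and from 5.68 to 20.1 CPM (median 9.22) in T1D. Already without diabetes, 4 of 6 KO mice were below all WT Control mice, with a difference of -0.67 ± 0.388 (edgeR, adjusted p = 0.999). The Control groups overlapped, so Car12 is not among the 0.292% of genes that were lower in KO Control with no overlap. The share of genes with 4 of 6 mice below was not counted. The change with T1D in KO was 0.22 ± 0.374 (edgeR, adjusted p = 1.00), and it turned to -0.09 when KO T1D mouse A3674 was left out.

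Car13, a cytosolic enzyme, was at 5.31 to 8.48 CPM in WT Control, 3.68 to 8.67 CPM in WT T1D, 4.75 to 9.66 CPM in KO Control, and 6.11 to 8.43 CPM in KO T1D. Car9, a membrane enzyme induced by hypoxia, was at 2.14 to 3.02, 1.56 to 3.10, 2.05 to 2.69, and 1.62 to 3.68 CPM in the same groups. The groups overlapped for both genes. With T1D, Car13 changed by -0.06 ± 0.201 in WT (edgeR, adjusted p = 0.902) and -0.24 ± 0.189 in KO (edgeR, adjusted p = 1.00), and Car9 by -0.07 ± 0.211 in WT (edgeR, adjusted p = 0.878) and 0.10 ± 0.201 in KO (edgeR, adjusted p = 1.00). With A3905 and A3906 left out, the WT changes were 0.0930 for Car13 and -0.0156 for Car9 (edgeR, adjusted p = 0.917 and 0.988). Of 15 other hypoxia response genes, 0 passed in either genotype, with a median change in WT of 0.01, against -0.01 over all genes, and of -0.0402 without that pair.

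Car5b encodes a mitochondrial enzyme. It was at 1.41 to 2.59 CPM in WT Control, 0.980 to 4.02 CPM in WT T1D, 0.716 to 2.44 CPM in KO Control, and 0.647 to 2.33 CPM in KO T1D. A3905 (4.02 CPM) and A3906 (3.35 CPM) were the highest of all mice. The change in WT was 0.28 ± 0.387 (edgeR, adjusted p = 0.716) with that pair and -0.37 without it (edgeR, adjusted p = 0.767).

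**Figure D4:**
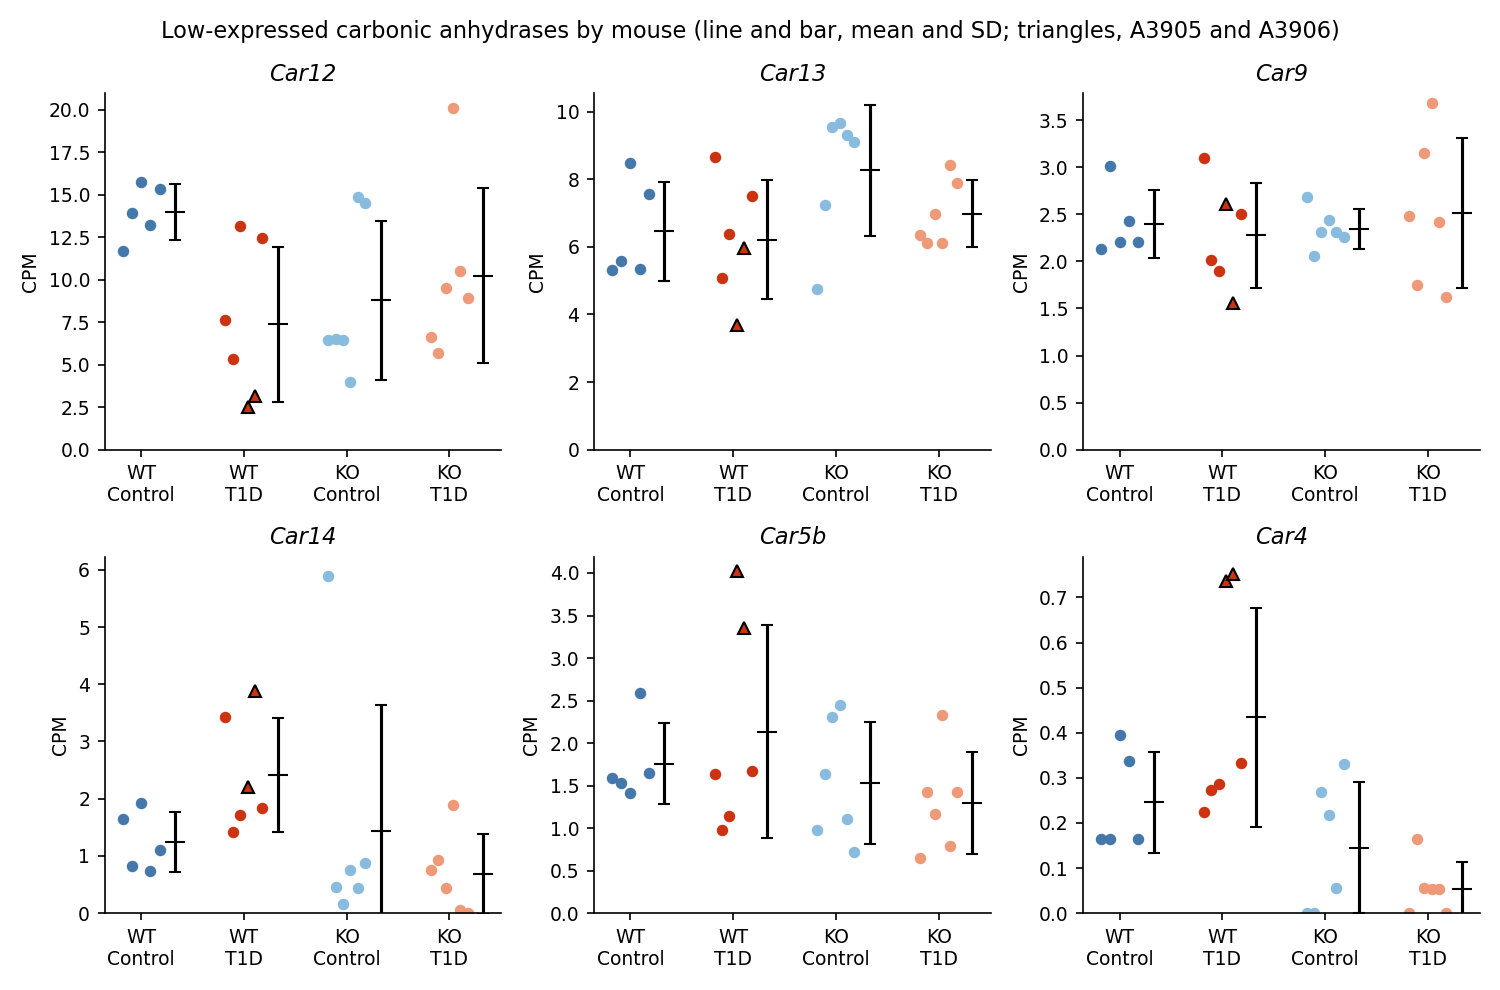
CPM of Car12, Car13, Car9, Car14, Car5b, and Car4 in each mouse by group, with the mean and SD beside the points (the lower end of the bar is cut at 0). All 6 KO T1D mice lie below all 6 WT T1D mice for Car4, and for Car14 mouse A3679 reaches 5.89 CPM in KO Control.

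Car14 encodes a membrane enzyme known from muscle, among other tissues. It was at 1.64, 0.823, 1.92, 0.733, and 1.10 CPM in WT Control, and at 1.42 to 3.87 CPM (median 2.02) in WT T1D. In KO Control it ranged from 0.161 to 5.89 CPM (median 0.611), with 1 mouse, A3679, far above the others. In KO T1D it ranged from 0 to 1.89 CPM (median 0.598). The change with T1D was 0.95 ± 0.734 in WT (edgeR, adjusted p = 0.460), or 0.75 ± 0.804 (edgeR, adjusted p = 0.784) without A3905 and A3906, and -1.07 ± 0.733 in KO (edgeR, adjusted p = 1.00), and the KO value turned to 0.32 without A3679.

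Car4 encodes an enzyme tethered to the outer cell surface by a lipid anchor, known from capillaries and kidney. Its counts, too low for the main test, were 3, 3, 7, 6, and 3 in WT Control. They ranged from 4 to 13 (median 5.5) in WT T1D, from 0 to 6 (median 2.5) in KO Control, and from 0 to 3 (median 1) in KO T1D. All 6 KO T1D mice were below all 6 WT T1D mice in CPM, at 0 to 3 counts against 4 to 13. The same held for 0.411% of the tested genes, which have more counts and do not include Car4. Of the 12 KO mice, 9 were below all 11 WT mice, and the share of genes with that pattern was not counted. With no filter on low counts, the difference between KO and WT in T1D was -2.87 ± 0.763 (edgeR, adjusted p = 0.128 over 18002 genes), and between KO and WT in Control -0.72 ± 0.731 (edgeR, adjusted p = 0.982). Single mice had no more than 13 counts, so these differences rest on few reads.

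Between genotypes, 0 of 8 carbonic anhydrases passed in Control mice, where 0.0278% of all tested genes did, and 0 of 8 had an unadjusted edgeR p under 0.05, against 4.8% of all genes. In T1D mice 0 of 8 passed, where 0.0905% of all genes did, with 0.0627% higher and 0.0278% lower in KO. There Car1, Car2, and Car14, all lower in KO, had an unadjusted edgeR p under 0.05, which is 3 of 8 against 17.1% of all genes. DESeq2 also gave 0 of 8 in both comparisons, with unadjusted p under 0.05 for 0 and 4 genes. The share of all genes with such a p in DESeq2 was not counted. In T1D mice the KO-minus-WT difference of Car1 was -1.09 ± 0.302 (edgeR, adjusted p = 0.119), which became -0.22 ± 0.165 (edgeR, adjusted p = 0.827) without A3905 and A3906, and -1.61 ± 0.295 (edgeR, adjusted p = 0.00629) among mice with A36 to A39 IDs. Among the latter mice the KO T1D IDs all began with A36 and the WT T1D IDs with A39. ID series and genotype cannot be told apart there. The KO-minus-WT difference of Car14 in T1D mice was -1.83 ± 0.726 (edgeR, adjusted p = 0.220), or -1.63 ± 0.792 (edgeR, adjusted p = 0.769) without A3905 and A3906. For Car14, 5 of 6 KO T1D mice were below all WT T1D mice, and the share of genes with that pattern was not counted.

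Car genes outside the 9 did not pass in any comparison. Car5a, Car7, Car8, Car11, and Car15 were tested, and their changes with T1D in WT ran from -0.75 (Car8) to -0.16 (Car7), with a median of -0.36, or -0.17 without A3905 and A3906. In KO they ran from -0.50 to 0.13. Car6 and Car10 had at most 3 and 10 counts in any mouse and were not tested.

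The proteins that move bicarbonate, protons, and gas beside carbonic anhydrases were followed as lists. Of 17 bicarbonate and proton exchangers tested, 1 rose in WT with T1D, where 1.5% of all tested genes did. It was Slc4a1, the band 3 exchanger of red blood cells, at 0.64 ± 0.143 (edgeR, adjusted p = 0.0367). The list's median change was -0.08. Slc26a6, another exchanger of chloride for bicarbonate, was at -0.61 ± 0.170 (edgeR, adjusted p = 0.0524). Of 4 gas and ammonia channels tested, 2 rose, Aqp1 by 0.64 ± 0.138 (edgeR, adjusted p = 0.0367) and Rhag by 0.94 ± 0.202 (edgeR, adjusted p = 0.0367), both known from red blood cells. Without A3905 and A3906 the changes were 0.46 for Slc4a1, 0.40 for Aqp1, and 0.60 for Rhag (edgeR, adjusted p = 0.286 for each), and -0.44 for Slc26a6 (edgeR, adjusted p = 0.363). In KO, 0 of 17 and 0 of 4 passed.

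Osteoclasts secrete the acid that CAR2 helps to make through a proton pump and a chloride channel. Of 14 genes of this apparatus, 0 passed in WT or KO, and the WT changes lay between -0.10 (Atp6v1h) and 0.20 (Ostm1), with a median of 0.02. Tcirg1, a proton pump subunit, was at -0.07 ± 0.135 (edgeR, adjusted p = 0.810), and Clcn7, the chloride transporter, at -0.01 ± 0.110 (edgeR, adjusted p = 0.966). Of 11 osteoclast markers, 0 passed in either genotype, with a median change in WT of 0.05. These values average unlike mice. The summed level of the osteoclast markers was 4578 and 4912 CPM in A3905 and A3906 and 1884 to 2766 CPM in the other 4 WT T1D mice, against 2547 to 3341 CPM in WT Control. Without that pair, the median change in WT was -0.45 for the osteoclast markers, with 10 of 11 negative, and -0.17 for the acid secretion genes, with 13 of 14 negative, and 0 passed (edgeR). Tcirg1 was then at -0.32 and Clcn7 at -0.21 (edgeR, adjusted p = 0.304 and 0.402).

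Markers of red blood cells rose beside Car1 and Car2 in WT. Of 19 erythroid markers tested, which do not include Car genes, 9 rose in WT with T1D, where 1.5% of all tested genes did. All 19 had a positive change, with a median of 0.56 against -0.01 over all genes. Slc4a1 and Rhag are in this list too. Among those that rose was Hbb-bs, a β-globin, by 0.89 ± 0.198 (edgeR, adjusted p = 0.0367). Globin genes have near-identical copies, so their counts may be divided between them. In KO 0 of 19 passed, with a median of 0.06. Without A3905 and A3906, 0 genes of any list passed in WT, all 19 erythroid changes were still positive with a median of 0.41, and Hbb-bs was at 0.60 (edgeR, adjusted p = 0.286). The summed level of the list was 99950 to 145771 CPM in WT Control and 128873 to 241296 CPM in WT T1D. In KO mice it was 82504 to 167857 CPM without diabetes and 111123 to 155393 CPM with it, and no marker was at 0 in every mouse.

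The change of Car2 in WT lay within the range of the erythroid markers, which was 0.35 to 0.94, and that of Car1 lay above it. The part of red blood cells in these changes was not tested. In bulk bone fewer or more cells of a type cannot be told apart from less or more RNA per cell.

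Across the 23 mice, Car2 followed the erythroid score, the mean log2 (CPM + 0.5) of those markers, with Pearson's r = 0.955 and Spearman's rho = 0.851 (permutation p = 1e-05 for both, the smallest that 100000 resamples give, adjusted p = 2e-05 and 2.67e-05 over 8 relations). The r was 0.917 without the mice farthest from the median score, A3906 and A3766, and 0.919 without A3905 and A3906. Car1 followed it with r = 0.892 and rho = 0.765 (permutation p = 1e-05 and 6e-05, adjusted 2e-05 and 0.00012), with r = 0.827 and 0.788 in the same 2 reductions. Car1 and Car2 themselves had r = 0.894 and rho = 0.824 (permutation p = 1e-05 for both, adjusted 2e-05 and 2.67e-05), with r = 0.854 without A3766 and A3906 and 0.828 without A3905 and A3906. Among mice with A36 to A39 IDs, r was 0.955, 0.896, and 0.898 for these relations. All 8 relations were permuted over the 23 mice regardless of group, so their p values also reflect differences between groups. For deviations from the group means, Car1 and Car2 had r = 0.774.

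Car2 did not follow the osteoclast score, with r = 0.219 and rho = -0.144 (permutation p = 0.314 and 0.51, adjusted 0.359 and 0.51), and r = -0.454 without A3905 and A3906, which are also the mice farthest from the median. Among mice with A36 to A39 IDs r was 0.373.

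**Figure D5:**
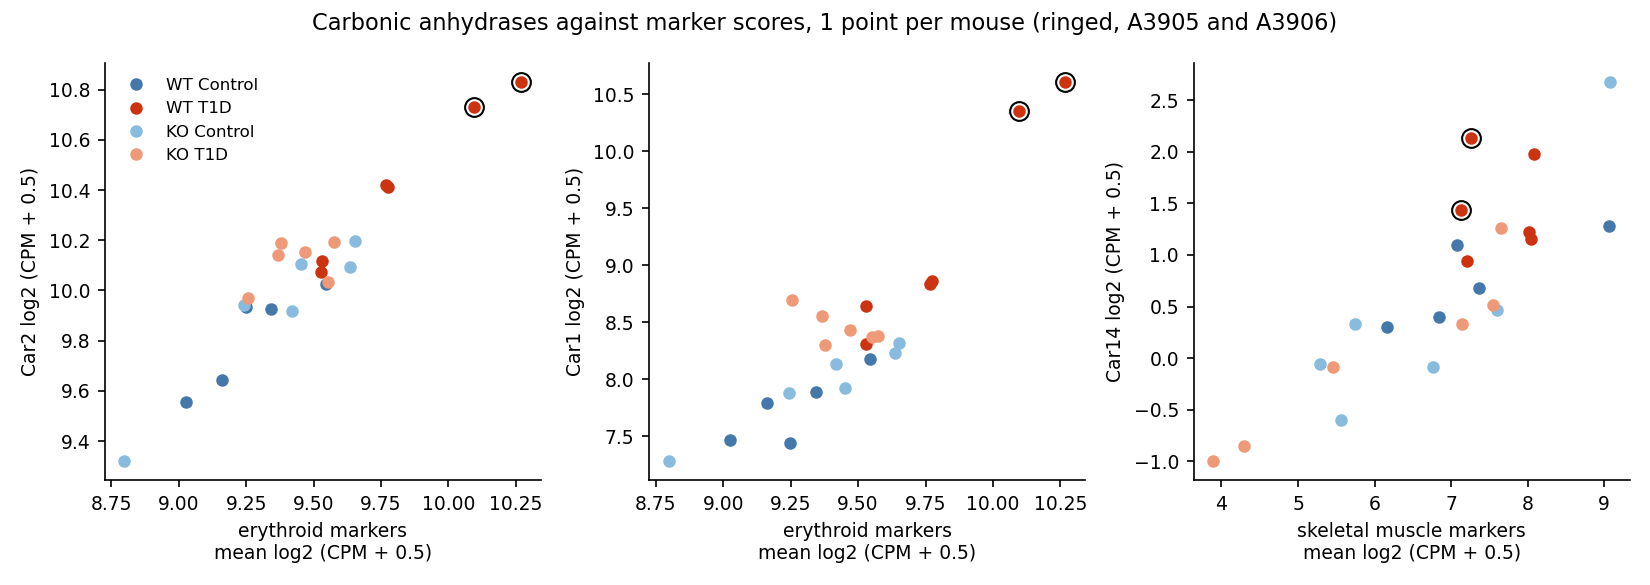
Car2 and Car1 against the erythroid score and Car14 against the skeletal muscle score, each as log2 (CPM + 0.5), with 1 point per mouse. Car2 and the erythroid score have r = 0.955, and A3905 and A3906 (ringed) lie at the upper end of both erythroid plots.

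Car3 and Car12 followed markers of bone-forming cells. Of 13 osteoblast and osteocyte markers, 2 fell in WT with T1D, Runx2 (-0.66 ± 0.161, edgeR, adjusted p = 0.0451), a regulator of osteoblasts, and Ibsp (-0.78 ± 0.149, edgeR, adjusted p = 0.0236), a matrix protein. Of all tested genes, 0.828% fell in WT. The list's median change was -0.75 in WT and 0.05 in KO, where 0 passed. Its summed level ranged from 60963 to 118588 CPM in WT Control and from 5077 to 85653 CPM in WT T1D. A3905 was at 6515 CPM and A3906 at 5077 CPM, whereas the other 4 WT T1D mice, at 62599 to 85653 CPM, lay within the control range. Without that pair, the median change was -0.40 with 13 of 13 negative, Runx2 was at -0.42 and Ibsp at -0.62 (edgeR, adjusted p = 0.286 and 0.149), and 0 passed. Car3 followed this score with r = 0.901 and rho = 0.707 (permutation p = 2e-05 and 0.00026, adjusted 3.2e-05 and 0.000347), and r = 0.588 without A3905 and A3906. Car12 followed it with r = 0.756 and rho = 0.761 (permutation p = 3e-05 and 9e-05, adjusted 4e-05 and 0.000144), and r = 0.607 without that pair. The part of bone-forming cells in the values of Car3 and Car12 was not tested. Those 2 mice are the farthest from the median of this score. Among mice with A36 to A39 IDs r was 0.909 for Car3 and 0.767 for Car12.

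Car3, known from muscle, did not follow the skeletal muscle score, with r = 0.151 and rho = 0.418 (permutation p = 0.494 and 0.0489, adjusted 0.494 and 0.0559). Its r was 0.287 without the farthest mice, A3675 and A3676, 0.407 without A3905 and A3906, and 0.154 among mice with A36 to A39 IDs. Car14 did follow it, with r = 0.845 and rho = 0.846 (permutation p = 1e-05 for both, adjusted 2e-05 and 2.67e-05), 0.770 without A3675 and A3676, 0.890 without A3905 and A3906, and 0.839 among mice with A36 to A39 IDs. The summed level of the 12 muscle markers ranged from 1258 to 8979 CPM in WT Control and from 2267 to 5271 CPM in WT T1D. It ranged from 665 to 8433 CPM in KO Control and from 215 to 4098 CPM in KO T1D, and 0 of 12 passed in any comparison. In T1D mice all 12 were lower in KO than in WT, with a median difference of -1.12, or -1.24 without A3905 and A3906. In Control mice 10 of 12 were lower in KO, with a median of -0.49. The part of attached muscle in the Car14 values was not tested.

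Other marker lists gave few calls. Of 9 adipocyte markers 1 rose in WT, Fabp4 (1.36 ± 0.315, edgeR, adjusted p = 0.0418), a fatty acid carrier, where 1.5% of all tested genes did. The median change of the adipocyte markers in WT was 1.05, with 8 of 9 positive, and it was 0.27 without A3905 and A3906. Of 9 growth plate cartilage markers, 11 neutrophil markers, 9 B cell markers, and 9 endothelial markers, 0 passed in WT or KO, with median changes in WT of -1.09, 0.19, -0.03, and -0.20. When A3905 and A3906 were left out, these medians were -1.21, -0.0275, 0.40, and -0.10, and Fabp4 was at 0.45 (edgeR, adjusted p = 0.286). Averaged over genotypes, Tek, a receptor of endothelial cells, fell by 0.45 on the log2 scale (edgeR, adjusted p = 0.0400), and its change was -0.43 without that pair (edgeR, adjusted p = 0.0969).

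The genes whose levels were most like each carbonic anhydrase over the 23 mice were picked by Pearson's r of log2 (CPM + 0.5) among 13306 genes with a mean of at least 1 CPM. For Car1 these were Carhsp1 (r = 0.948), Tk1 (0.945), and E2f8 (0.940), and for Car2 they were Art4 (0.954), Rhd (0.948), and Rrm2 (0.947). Without A3905 and A3906, r was 0.844, 0.832, and 0.853 for Car1 and 0.925, 0.918, and 0.902 for Car2. Tk1 and Rrm2 act in DNA precursor synthesis, and Rhd and Art4 encode blood group proteins.

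For Car3 the closest genes were Praf2 (0.947), Scrn1 (0.944), and Ptprk (0.944), and r fell to 0.789, 0.779, and 0.779 without A3905 and A3906. For Car12 they were Apc (0.871), Pkd1 (0.866), and Hspg2 (0.863), with r = 0.772, 0.773, and 0.765 without that pair. For Car14 they were Asb12 (0.927), Fbp2 (0.903), and Myom2 (0.896), of which Fbp2 and Myom2 are known from muscle. For Car13 the closest were Adgre4 (0.787), Ifih1 (0.786), and Sh3bgrl (0.785), for Car5b Nmb (0.806), Sox13 (0.771), and Agap1 (0.769), and for Car9 Maml3 (0.701), Rbms2 (0.684), and Rcor3 (0.673). Without that pair, r was 0.921, 0.897, and 0.911 for Car14 and 0.690, 0.688, and 0.724 for Car13. It was 0.637, 0.576, and 0.587 for Car5b and 0.695, 0.747, and 0.641 for Car9. All mice share their libraries between the genes compared, so these values describe likeness only.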

How the data were processed

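Bulk RNA-Seq values of marrow-depleted bone from 23 mice, 1 library per mouse, were grouped by the library labels. The authors deposited 2 tables, RSEM expected counts per gene that are whole numbers with no scaling applied, and the sequencing provider's TPM. HISAT and Bowtie2 had been used, on the GRCm38.p6 build. Versions are not given in the sources used here. No columns of values were left unassigned to a mouse.

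The counts were tested with edgeR 4.0.16 under R 4.3.3. A gene entered with 10 or more counts in 5 or more mice, which left 14364 genes. They were normalized with TMM and fitted with 1 mean per group by quasi-likelihood. The p values were adjusted over these genes by Benjamini-Hochberg, with a threshold of 0.05. The procedure was tested on simulated data. Alternatives used DESeq2 1.42.0, its size factors in edgeR, no filter on low counts, limma 3.58.1 on log2 (TPM + 1) or log2 (TPM + 0.1), the A36 to A39 mice only, omission of A3905 and A3906, and omission of each mouse. A fit of only the compared groups and, for group overlap, scaling to library totals without TMM were chosen after seeing the data. CPM values include the TMM factor. Correlations used 100000 resamples in numpy 2.4.6, and exact tests used scipy 1.17.1.

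The carbonic anhydrases and gene lists were chosen with earlier results of these data known. Named genes were the 9 carbonic anhydrases, the other Car genes, list genes past the threshold or with the lowest p, and the 3 genes most like each tested carbonic anhydrase. Tcirg1, Clcn7, and Atp6v1h were named after their values were seen.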

Additional observations from a re-analysis of the deposited data

Results flagged for a closer look

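In 36 groups of 5 or 6 mice (9 genes in 4 groups), 4 had a highest mouse that stood apart by Dixon's criterion, which chance alone meets in about 1 group in 20. Car14 was at 5.89 CPM in KO Control mouse A3679, where the group's median was 0.611 CPM. Car12 was at 20.1 CPM in KO T1D mouse A3674, where the median was 9.22 CPM. Car5b was at 2.59 CPM in WT Control mouse A3904, where the median was 1.59 CPM. Car4 was at 0.164 CPM in KO T1D mouse A3682, which is 3 counts, where the median was 0.0534 CPM. Leaving out A3679 turned the change of Car14 with T1D in KO from -1.07 to 0.32, and leaving out A3674 turned that of Car12 from 0.22 to -0.09.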

How the results depend on the processing

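The count of carbonic anhydrases past the threshold in WT with T1D was 2 in the reported fit. It was 4 with limma on log2 (TPM + 1) and 4 on log2 (TPM + 0.1), where Car3 and Car12 joined Car1 and Car2, 5154 and 5173 genes of any kind passed, and the median gene changed by -0.24 and -0.29. It was 0 without A3905 and A3906 and 0 with only the WT groups. Leaving out each mouse in turn gave 0 to 2. Car1 was lost without WT Control A3767, A3903, A3904, or A3907 or without WT T1D A3905, with adjusted p up to 0.0803 (edgeR) and changes from 1.44 to 1.93 over all 23 omissions. Car2 was lost without any of these, without WT T1D A1787 or A3906, and without KO mice A3670, A3673, A3675, A3679, or A3681, with adjusted p up to 0.115 and changes from 0.55 to 0.70. Averaged over genotypes the count was 1, where 16 of 14364 genes passed. It was 2 with DESeq2, where 249 of 14364 genes passed, and 2 within the A36 to A39 mice, where 536 of 14278 did. Over the omissions it was 0 to 2. Car1 was kept there only without A1757, A1764, A1758, or A3909. KO against WT in T1D gave 0, but 1 with limma on log2 (TPM + 0.1) (Car14), 1 within the A36 to A39 mice (Car1), and 0 to 1 over the omissions (Car1, without A3909). The other comparisons stayed at 0 in every alternative.

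Signs turned only for changes that had not passed. In WT, Car5b turned to -0.0467 and -0.14 with limma on log2 (TPM + 1) and log2 (TPM + 0.1) and to -0.37 without A3905 and A3906, and Car13 turned to 0.0930 without that pair. Over the omissions, Car9 ran from -0.18 to 0.0239 and Car13 from -0.18 to 0.0654 in WT, and Car9 from -0.0435 to 0.19, Car12 from -0.0943 to 0.43, and Car14 from -1.71 to 0.32 in KO. The cause was not tested. DESeq2 and its size factors turned no sign. No paired analysis was possible because the groups share no mouse numbers.

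Depth limits Car4, Car14, and Car5b, which have few counts in many mice.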
